A study of Oncorhynchus mykiss with 48 samples.

Results

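In the F2 trout liver, 200 genes stood on opposite sides of the control at the 2 ages sampled in the lineage of the higher bisphenol A (BPA) dose. They were chosen from the fish themselves by a rule on measured values. For each gene, the fragments were scaled to a total of 1000000 per fish (CPM), and R was the log2 ratio of the mean of BPA40 fish to the mean of Control fish, each with 0.5 CPM added. A gene was taken when R had opposite signs at F2 365 dpf and F2 112 dpf (days post fertilization), an absolute value of at least 0.7 at both ages, and a mean of at least 2 CPM over the 16 fish. Of 46585 genes in the tables, 16457 reached that mean without a mark for excess fragments in F2, and 203 passed the rule. The 200 with the largest smaller absolute R were kept. They form 162 late-high genes, which were above the Control in BPA40 fish at 365 dpf and below it at 112 dpf, and 38 late-low genes, which were below it at 365 dpf and above it at 112 dpf.

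Bisphenol A is a monomer of plastics that binds oestrogen receptors, and fish transfer it to their eggs. The liver of a growing trout makes plasma proteins, stores glycogen and handles dietary lipid, and its transcript profile shifts as the fish passes from the juvenile to the post-juvenile growth phase. A response of such a tissue can differ between growth phases in its sign as well as its size.

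The series holds liver RNA libraries of 48 rainbow trout: 4 fish per treatment and time point, with 3 treatments, sampled at 140 and 365 dpf in F1 and at 112 and 365 dpf in F2. F1 fish grew from eggs held before fertilization in ovarian fluid with vehicle, 3 or 30 mg/l of BPA. This left 0 (Control), 4 (BPA4) or 40 (BPA40) ng in each egg. In the paper, the BPA of the eggs fell as the embryos developed and could not be detected at hatch. No BPA was given later, and the water was clean. F2 fish grew from the eggs of F1 females of these treatments, fertilized by untreated males. According to the paper, these eggs held no detectable BPA, but the germ cells they came from had met BPA in the F1 embryo. All fish had been without food for some time when sampled. In F2 each treatment was kept in a single tank for the later growth, so that tank and treatment cannot be told apart there, and the labels name no tank, batch or date for any fish.

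The libraries held 6788947 to 19528494 fragments assigned to genes. With at least 5 fragments counted as detection, between 14644 and 21322 genes were detected per fish at F2 112 dpf and between 24571 and 30122 at F2 365 dpf. The TMM factors of edgeR, which scale a library for its composition, ran between 0.736 in Control replicate 0 and 1.21 in BPA40 replicate 0 at F2 365 dpf. The median R of all 16457 genes was 0.10 at F2 365 dpf and -0.14 at F2 112 dpf, so the whole transcriptome leaned the way of the late-high genes at both ages. With TMM scaling these medians were -0.07 and 0.02, and the rule then took 51 late-high and 114 late-low genes in place of 164 and 39. Which of the lists is longer thus depends on the scaling. All 51 of those late-high genes and all 38 late-low genes kept above were found under both scalings. TMM scaling moved the late-low medians of R away from 0, to -1.13 at 365 dpf and 1.25 at 112 dpf. Of the 162 late-high genes, 84 still had an R of at least 0.7 at 365 dpf and 90 one of -0.7 or less at 112 dpf. Every one of the 200 genes kept the signs of its R, which the threshold of 0.7 made likely beforehand and which is no check.

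Genes appear in the tables under annotation identifiers that are not paired with names. Of these identifiers, 0 matched the table of trout genes that was used as reference. Roles, pathways, liver markers and sequences are for that reason not given, and only a few identifiers are printed.

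Within the late-high genes, R at F2 365 dpf had a median of 0.88 and ran between 0.71 and 4.63. The median at F2 112 dpf was -0.90, with values between -2.54 and -0.71. For the late-low genes the median was -0.95 at 365 dpf, between -4.53 and -0.71, and 1.03 at 112 dpf, between 0.73 and 3.33. These values chose the genes and are a description only. The gene ranked 200 had a smaller absolute R of 0.706, the 3 genes left out by the limit had at most 0.703, and the first gene under the threshold had 0.699. The lowest mean level among the genes kept was 2.02 CPM, and the highest among genes that met the rest of the rule but not the minimum was 1.90 CPM. An absolute R of at least 1 at both ages was reached by 21 late-high and 14 late-low genes. For comparison, 127 genes of the 16457 had an R of at least 0.7 in size with the same sign at both ages, 69 of them above the Control and 58 below it. This count was made in CPM only, where the medians of R over all genes had opposite signs at the ages. It was not made with TMM scaling, so which pattern is the more frequent may depend on the scaling.

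**Figure D1:**
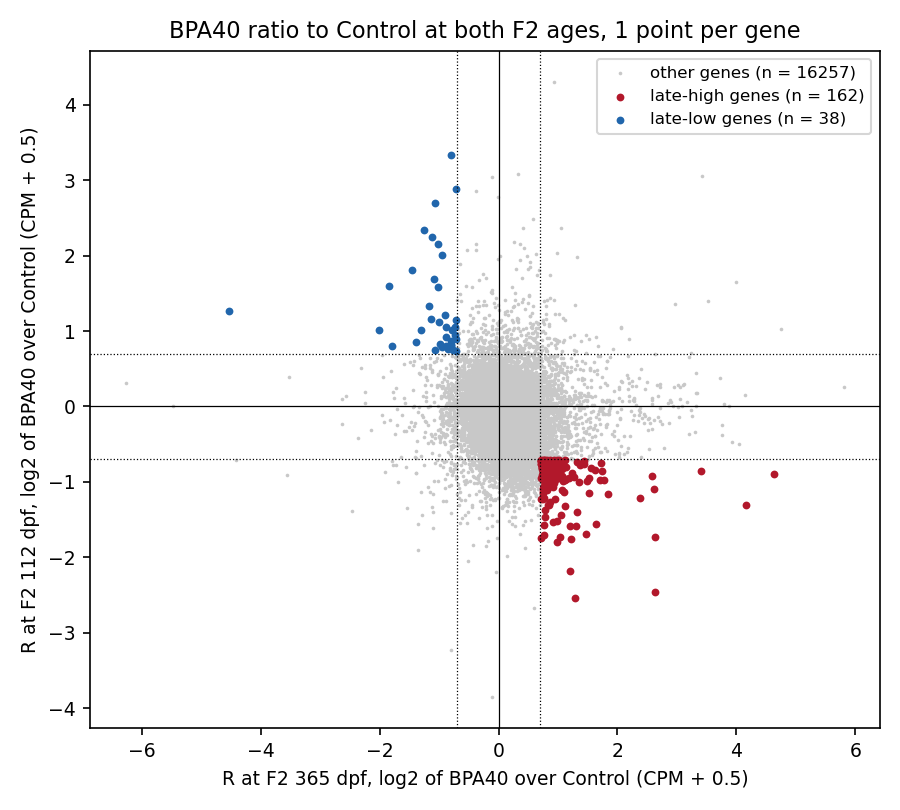
R of BPA40 against Control in F2 for 16457 genes, at 365 dpf on the horizontal and at 112 dpf on the vertical axis, both on a log2 scale with 0.5 CPM added, and with dotted lines at an absolute value of 0.7. The 162 late-high genes lie in the lower right corner and the 38 late-low genes in the upper left, and both lists crowd against the threshold.

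The levels of these genes ranged widely. The mean over the 16 fish had a median of 15.6 CPM in the late-high genes, where 64 genes were under 10 CPM and 14 were at 100 CPM or more. It was 6.34 CPM in the late-low genes, where 23 genes were under 10 CPM and 6 were at 100 CPM or more. The median over all 16457 genes was 9.24 CPM. Per length, the median level of the late-high genes at F2 365 dpf was 8.01 FPKM in BPA40 fish and 3.96 FPKM in Control fish. The median at F2 112 dpf was 3.98 FPKM in BPA40 fish and 7.79 FPKM in Control fish. The late-low genes had a median of 2.37 FPKM in BPA40 fish and 6.02 FPKM in Control fish at 365 dpf. At 112 dpf it was 3.12 FPKM in BPA40 fish and 1.25 FPKM in Control fish. In whole liver, fewer cells of a type and less RNA per cell cannot be told apart in any of these values.

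Summed over the 162 late-high genes, BPA40 fish had 9533 ± 1008 CPM and Control fish 4450 ± 330 CPM at F2 365 dpf (SD, n = 4 each). The sum at F2 112 dpf was 4016 ± 1222 CPM in BPA40 fish and 8205 ± 2591 CPM in Control fish. No BPA40 fish at 365 dpf had less than 8467 CPM and no Control fish more than 4921 CPM, while at 112 dpf the fish of the groups overlapped, with up to 5474 CPM in BPA40 fish and as little as 4987 CPM in Control fish. These fish chose the genes, so the sums are a description only. The sum of the late-low genes was held mostly by its most abundant gene, which gave 59.1% to 93.8% of it in the group averages. Without that gene, the other late-low genes summed to 1138 ± 140 CPM in BPA40 fish and 2347 ± 683 CPM in Control fish at F2 365 dpf, and to 1658 ± 1067 CPM in BPA40 fish and 783 ± 437 CPM in Control fish at F2 112 dpf.

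Single fish carried part of the pattern. Among the late-high genes, 66 had no overlap between the 4 BPA40 and the 4 Control fish at F2 365 dpf, with BPA40 above. Over all 16457 genes that share was 6.23%. With BPA40 below at F2 112 dpf, 32 late-high genes had no overlap, where the share over all genes was 3.31%. Both held in 12 late-high genes, against 0.334% of all genes. Of the 38 late-low genes, 6 had no overlap with BPA40 below at 365 dpf, where the share of all genes was 2.07%. Another count of 6 had none with BPA40 above at 112 dpf, where it was 0.778%, and 1 gene had none at both ages, against 0.0425% of all genes. Since the rule used these contrasts, the counts describe the genes and nothing is read from them. All counts of genes without overlap, in F2 and in F1, were made in CPM. They were not made with TMM scaling and may depend on it.

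When each of the 16 fish was left out in turn, 19 late-high and 2 late-low genes passed the rule every time. Without BPA40 replicate 0 of F2 112 dpf, 115 of the 200 genes still passed, the smallest number. The number was 132 without Control replicate 1 of F2 112 dpf and 136 without Control replicate 0 of F2 365 dpf, the library with the lowest TMM factor, and it reached 190 without Control replicate 3 of F2 112 dpf. In the late-low genes, the highest of the 4 fish of the higher group held a median of 44.2% of that group's CPM at 365 dpf and 47.4% at 112 dpf. For 5 late-low genes at 365 dpf and 8 at 112 dpf, 1 fish held over 70% of the group's CPM. Among the late-high genes that was so for 0 genes at 365 dpf and 6 at 112 dpf.

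Expressed per fish as the median over the late-high genes of the log2 level relative to the Control mean, BPA40 fish at F2 365 dpf had 1.11, 1.09, 0.59 and 0.64, against -0.30, 0.16, -0.07 and -0.04 in Control fish. In the fish of F2 112 dpf it was -1.57, -1.13, -0.38 and -0.997 in BPA40 fish, against 0.01, 0.28, -0.09 and -0.50 in Control fish. BPA40 replicate 2 and Control replicate 3 were the fish that crossed at 112 dpf. Over all 16457 genes the measure at 112 dpf was -0.32, -0.49, 0.09 and -0.16 in BPA40 fish, against 0.06, 0.13, -0.12 and -0.17 in Control fish. There too BPA40 replicate 2 was the highest and Control replicate 3 the lowest of its group. At 365 dpf it was 0.25, 0.07, -0.01 and 0.01 over all genes in BPA40 fish, against -0.19, 0.06, 0.01 and 0.02 in Control fish. The same measure over the late-low genes was -1.07, -0.96, -1.13 and -0.93 in BPA40 fish at 365 dpf, against 0.34, -0.43, -0.37 and -0.13 in Control fish. At 112 dpf it was 1.40, 0.63, 0.96 and 0.70 in BPA40 fish, against -0.01, -0.25, 0.01 and -0.04 in Control fish. For the late-low genes the fish of the groups did not overlap at either age. Since the rule chose the genes by these fish, a separation of the groups is favoured by the choice and is a description only.

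**Figure D2:**
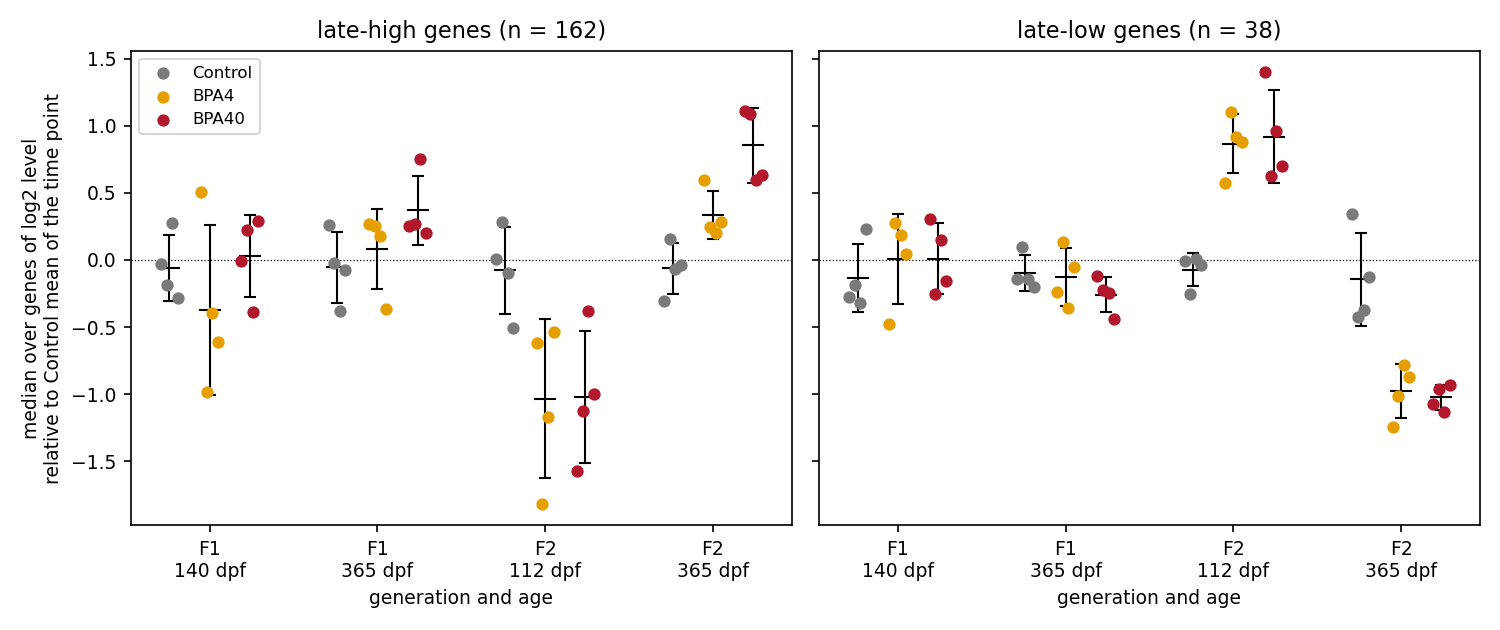
Median over the genes of each list of the log2 level (CPM + 0.5) relative to the Control mean of the time point, for 48 fish, with the generation and age on the horizontal axis. Points are single fish, and bars are the mean and SD of the 4 fish. At F2 365 dpf the late-high genes of BPA40 fish lie between 0.59 and 1.11, above all 4 Control fish, and in F1 the fish of these treatments overlap at both ages. The genes were chosen by the F2 fish of these treatments and not by the F1 fish.

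GSONMT00014403001, the late-high gene ranked first by its smaller absolute R among those with no overlap at both ages, had 201, 302, 268 and 202 CPM in BPA40 fish at F2 365 dpf, against 39.1, 48.8, 134 and 168 CPM in Control fish. At F2 112 dpf it had 12.1, 18.1, 26.1 and 14.5 CPM in BPA40 fish, against 33.7, 90.1, 33.4 and 33.6 CPM in Control fish. In CPM, all BPA40 fish were above all Control fish at the later age and below them at the earlier, with an R of 1.31 and -1.41. The separation at 365 dpf depends on the scaling. BPA40 replicate 0, at 201 CPM, had a TMM factor of 1.21, and Control replicate 3, at 168 CPM, one of 0.997. Divided by these factors, the level of that BPA40 fish falls just below that of the Control fish. In BPA4 fish the gene had 104, 186, 195 and 118 CPM at 365 dpf and 41.2, 3.98, 25.4 and 26.9 CPM at 112 dpf. In F1 it stood higher, at 715 ± 480 CPM in BPA40 fish and 745 ± 215 CPM in Control fish at 365 dpf, and at 167 ± 83.6 CPM in BPA40 fish and 262 ± 116 CPM in Control fish at 140 dpf (SD, n = 4 each). The F1 fish overlapped at both ages. The log2 fold change by edgeR's quasi-likelihood test was -0.05 ± 0.49 (SE) at F1 365 dpf, with an adjusted p of 0.986. At F1 140 dpf it was -0.74 ± 0.42 (SE), with an adjusted p of 0.782.

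GSONMT00081369001, the other late-high gene named by that order, had 13.4, 15.8, 9.73 and 11.3 CPM in BPA40 fish at F2 365 dpf, against 5.47, 7.24, 5.60 and 4.50 CPM in Control fish. At F2 112 dpf it had 8.57, 16.04, 15.6 and 9.63 CPM in BPA40 fish, against 37.6, 25.4, 24.6 and 22.02 CPM in Control fish. In CPM, the BPA40 fish had nearly the same level at both ages, 12.6 ± 2.63 CPM at 365 dpf and 12.5 ± 3.92 CPM at 112 dpf. The Control fish had 5.70 ± 1.14 and 27.4 ± 6.96 CPM. A change between the F2 ages depends on the scaling, as given below for this gene in BPA4 fish. For BPA40 and Control fish the change was not examined under another scaling. BPA4 fish had 11.7 ± 2.82 CPM at 365 dpf, with all 4 fish above all Control fish, and 13.8 ± 7.94 CPM at 112 dpf. In F1 the gene had 15.0 ± 6.02 CPM in BPA40 fish and 11.2 ± 4.11 CPM in Control fish at 365 dpf, and 6.39 ± 1.54 CPM in BPA40 fish and 7.25 ± 2.93 CPM in Control fish at 140 dpf. Neither difference in F1 passed edgeR's test, with adjusted p-values of 0.809 at 365 dpf and 0.954 at 140 dpf.

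GSONMT00062786001 was the 1 late-low gene with no overlap at both ages. It had 19.3, 19.2, 21.4 and 18.5 CPM in BPA40 fish at F2 365 dpf, against 45.9, 25.9, 35.9 and 22.8 CPM in Control fish. At F2 112 dpf it had 17.7, 15.0, 12.9 and 15.1 CPM in BPA40 fish, against 9.14, 7.94, 9.35 and 9.29 CPM in Control fish. BPA40 fish averaged 19.6 ± 1.24 CPM at 365 dpf and 15.2 ± 1.96 CPM at 112 dpf, and Control fish 32.6 ± 10.5 CPM at 365 dpf and 8.93 ± 0.667 CPM at 112 dpf. BPA4 fish had 22.5 ± 1.88 CPM at 365 dpf and 18.0 ± 5.01 CPM at 112 dpf. In F1 the levels were 19.9 ± 5.48 CPM in BPA40 fish and 21.0 ± 4.03 CPM in Control fish at 365 dpf, and 14.4 ± 1.64 CPM in BPA40 fish and 15.5 ± 4.34 CPM in Control fish at 140 dpf. The adjusted p of edgeR's test was 0.873 at F1 365 dpf and 0.948 at F1 140 dpf.

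GSONMT00067783001 had the largest smaller absolute R of the other late-low genes, and its fish overlapped. It had 2.80, 6.09, 0.762 and 6.50 CPM in BPA40 fish at F2 365 dpf, against 25.1, 11.2, 5.60 and 21.4 CPM in Control fish. At F2 112 dpf, BPA40 fish had 5.44, 0, 0.574 and 1.16 CPM, against 0.174, 0.401, 0.275 and 0.191 CPM in Control fish. The BPA40 mean at the earlier age rested on replicate 0, and replicate 2 at 0.574 CPM was close to the Control fish. In F1 the fish of both treatments ran between 0 and 10.3 CPM. The log2 fold change there was -2.15 ± 1.26 (SE) at 365 dpf, with an adjusted p of 0.703, and -0.51 ± 1.22 (SE) at 140 dpf, with an adjusted p of 0.974, both by edgeR's quasi-likelihood test.

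**Figure D3:**
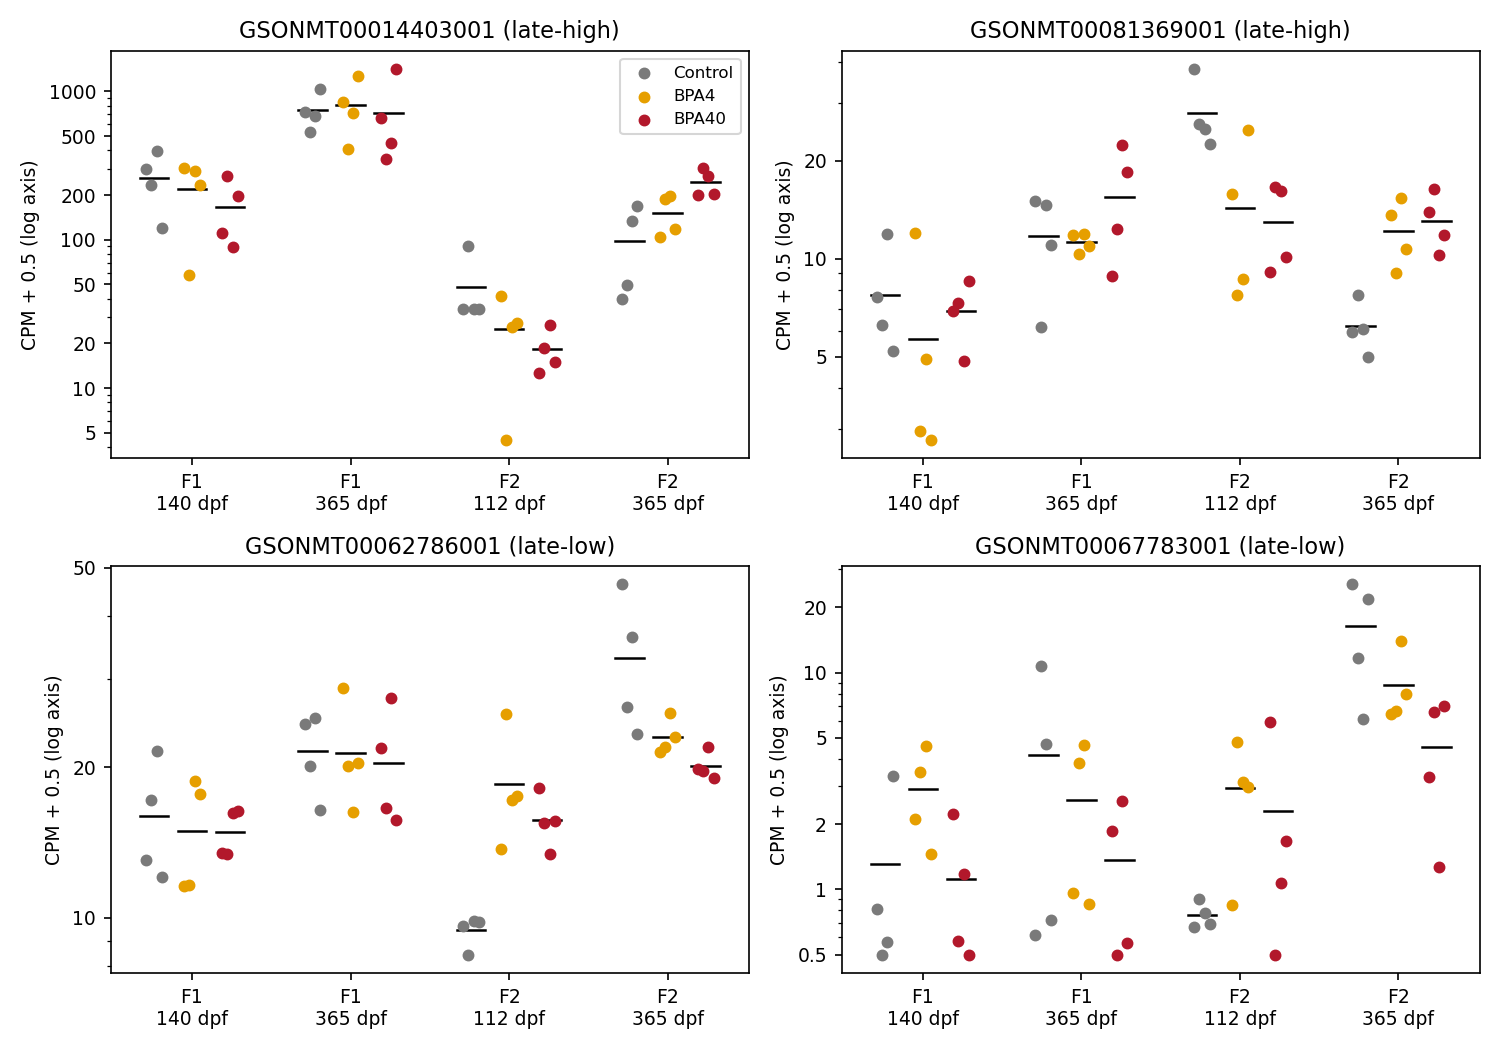
CPM + 0.5 of 4 genes in 48 fish on log axes, with the generation and age on the horizontal axis. Points are single fish, and black lines are the means of 4 fish. In the upper panels, the late-high genes, BPA40 fish lie above Control fish at F2 365 dpf and below them at F2 112 dpf, and in the lower panels, the late-low genes, the order of the means is the opposite.

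BPA4 fish of F2 were not used by the rule, but their ratio to Control uses the same Control fish, so it is set beside that of BPA40 without a test. In the late-high genes at F2 365 dpf, the median R was 0.42 for BPA4 and 0.88 for BPA40, and 134 genes were above 0 in BPA4. At F2 112 dpf it was -0.89 for BPA4 and -0.90 for BPA40, and 158 genes were below 0 in BPA4. In the late-low genes the median R was -0.80 for BPA4 and -0.95 for BPA40 at 365 dpf, and 0.98 for BPA4 and 1.03 for BPA40 at 112 dpf, with 31 and 33 of 38 genes on the side of BPA40. Over all 16457 genes, the median R of BPA4 was 0.05 at 365 dpf, with 9147 genes above 0 and 7308 below. At 112 dpf it was -0.16 over all genes, with 5820 above 0 and 10630 below. With TMM scaling, the late-high median for BPA4 was 0.29 at 365 dpf, with 121 genes above 0, and -0.76 at 112 dpf, with 155 below. The late-low medians for BPA4 were then -0.96 and 1.21. Over all genes they were -0.09 at 365 dpf, with 6611 above 0 and 9844 below, and -0.02 at 112 dpf. The lean of all genes at 365 dpf thus depends on the scaling. The mean of BPA4 fish lay between those of Control and BPA40 in 119 of the 162 late-high genes at 365 dpf. At 112 dpf it lay between them in 86 genes and beyond BPA40 in 72. Of the 38 late-low genes, the BPA4 mean lay between in 15 at either age, and beyond BPA40 in 16 at 365 dpf and 18 at 112 dpf. The rule set the Control and BPA40 means apart, which favours a BPA4 mean between them. No order by dose is read from these counts. In F1 fish, which the rule did not use, the BPA4 mean lay between in 96 late-high genes at 365 dpf and 35 at 140 dpf. Of the late-low genes it did so in 11 and 12. These orders of the means were not counted over all genes. Summed over the late-high genes, BPA4 fish of F2 had 8540 ± 1554 CPM at 365 dpf and 3974 ± 1689 CPM at 112 dpf. The lowest sum at 112 dpf, 1991 CPM, belonged to BPA4 replicate 1, which was also the fish with the fewest fragments, and the part of its depth in that value was not tested.

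The F1 fish were not used by the rule and share no fish with it. At F1 365 dpf, the age at which the late-high genes were above the Control in F2, their log2 fold change of BPA40 against Control had a median of 0.49 by edgeR's quasi-likelihood fit of the 12 fish. The quartiles over these genes were 0.06 and 0.80. The median over all 24243 genes tested was 0.00. The fold change was above 0 in 127 of 160 late-high genes tested (79.4%) and in 50.5% of all genes. At an unadjusted p under 0.05, 23 late-high genes (14.4%) were higher in BPA40 fish and 2 were lower (1.25%), where the shares over all genes were 4.04% higher and 3.55% lower. At an adjusted p under 0.05 edgeR gave 0 calls, for these genes and for all genes, and the smallest adjusted p of a late-high gene was 0.652. DESeq2 called 30 genes at that threshold, 1 of them late-high, and gave 29 of the 200 genes at an unadjusted p under 0.05, against 27 by edgeR. Over the 16369 tested genes of at least 2 CPM in F2, 4.68% were higher and 3.23% lower by edgeR, and the median was 0.02. The count of higher late-high genes was 39 without Control replicate 0 and 15 without Control replicate 3, and that of lower ones was 14 without BPA40 replicate 3. The median stayed between 0.40 and 0.62 when each of the 8 fish was left out.

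Per fish, the median level of the late-high genes relative to the Control mean at F1 365 dpf was 0.26, 0.27, 0.75 and 0.20 in BPA40 fish, against 0.26, -0.03, -0.38 and -0.08 in Control fish. Over all genes that measure was 0.06, 0.07, 0.25 and -0.17 in BPA40 fish, against 0.06, 0.05, -0.08 and -0.09 in Control fish. BPA40 replicate 2 was the highest in both measures. In the late-high genes Control replicate 0 lay among the BPA40 fish, so the groups overlapped. By their CPM, 55 of the 162 genes (34.0%) had an R of at least 0.7 at F1 365 dpf, where 4.83% of all genes did, and 8 (4.94%) had an R of -0.7 or less, where 2.65% did. The late-high genes varied more between fish of 1 treatment than all genes did, as given below. The part of this spread in the shares was not tested. No overlap between the fish, with BPA40 above, was found in 10 late-high genes, and over the genes tested the share was 2.11%. With BPA40 below, it was found in 1 late-high gene, where the share was 1.31%. Summed over the list, BPA40 fish had 9360 ± 3218 CPM and Control fish 8031 ± 1526 CPM (SD, n = 4 each), a difference smaller than the spread between fish.

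At F1 140 dpf the late-high genes of BPA40 fish lay around the Control, as the transcriptome did. The median log2 fold change was 0.02 over 160 genes tested and 0.03 over all 21078 genes. It was above 0 in 83 late-high genes and below 0 in 77, where 53.2% of all genes were above 0. At an unadjusted p under 0.05, 8 were higher and 4 lower in BPA40 fish (5.0% and 2.50%), against 4.29% and 2.92% of all genes. The higher ones numbered 13 without BPA40 replicate 1, and the lower ones 2 without Control replicate 1. No overlap with BPA40 above was found in 9 late-high genes, where the share of all genes was 4.43%, and with BPA40 below in 0, where it was 1.02%. Per fish, the median level was -0.01, 0.22, -0.39 and 0.29 in BPA40 fish, against -0.03, -0.19, 0.27 and -0.29 in Control fish, and the fish of both groups were mixed.

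Between BPA40 and Control fish of F1, a single gene passed an adjusted p of 0.05 by edgeR, and it is named here although it lies outside the rule for named genes, having been chosen after its values were seen. GSONMT00076108001, a late-high gene, had 6.97, 4.00, 6.13 and 4.72 CPM in BPA40 fish at F1 140 dpf, against 1.08, 0.389, 0.937 and 0.865 CPM in Control fish. Its log2 fold change was 2.67 ± 0.34 (SE), with an adjusted p of 0.0427 by edgeR's quasi-likelihood test, the 1 call among 21078 genes (0.00474%), and BPA4 fish had 2.03 ± 0.33 CPM. The adjusted p lay between 0.0168 without BPA40 replicate 1 and 0.147 without Control replicate 1, being under 0.05 without BPA40 replicate 1 or 2 only, and was 0.0595 with the replicate number as a block. DESeq2 gave the gene an adjusted p of 2.75e-08, among 104 genes it called, of which 4 were late-high and 1 was late-low. In F1 the gene was thus higher in BPA40 fish at the earlier age, while its R in F2 was 0.91 at 365 dpf and -1.53 at 112 dpf. The value at 112 dpf rested on Control replicate 2, with 12.6 CPM against 2.00, 2.40 and 0.383 CPM in the other Control fish and 0.536, 1.71, 1.66 and 0.847 CPM in BPA40 fish.

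Few late-low genes passed the test in F1. At F1 365 dpf their median log2 fold change was -0.16 over 37 genes tested, with 25 genes below 0, where 12007 of all 24243 genes were. At an unadjusted p under 0.05, 2 were lower (5.41%) and 0 higher, where the shares over all genes were 3.55% and 4.04%, and the lower ones numbered 4 without BPA40 replicate 0. At F1 140 dpf the median was 0.09, with 22 of 37 genes above 0, where 53.2% of all genes were. By the same p, 3 were higher (8.11%) and 0 lower, where the shares over all genes were 4.29% and 2.92%. The median there was 0.67 without Control replicate 3 and reached -0.16 at its lowest, and the higher ones numbered 5 without BPA40 replicate 1 and 1 without Control replicate 0 or Control replicate 3. By CPM, 7 of 38 genes (18.4%) had an R of -0.7 or less at F1 365 dpf, where 2.65% of all genes did, and 0 had an R of at least 0.7. At F1 140 dpf, 8 genes (21.1%) had an R of at least 0.7, where 4.62% of all genes did, and 2 (5.26%) had one of -0.7 or less, where 1.81% did. The late-low genes varied widely between fish of 1 treatment. Their SD on the log2 scale had a median of 0.70 at F1 365 dpf and 0.85 at F1 140 dpf, where the medians over all genes were 0.34 and 0.38, and the part of this spread in the shares was not tested.

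**Figure D4:**
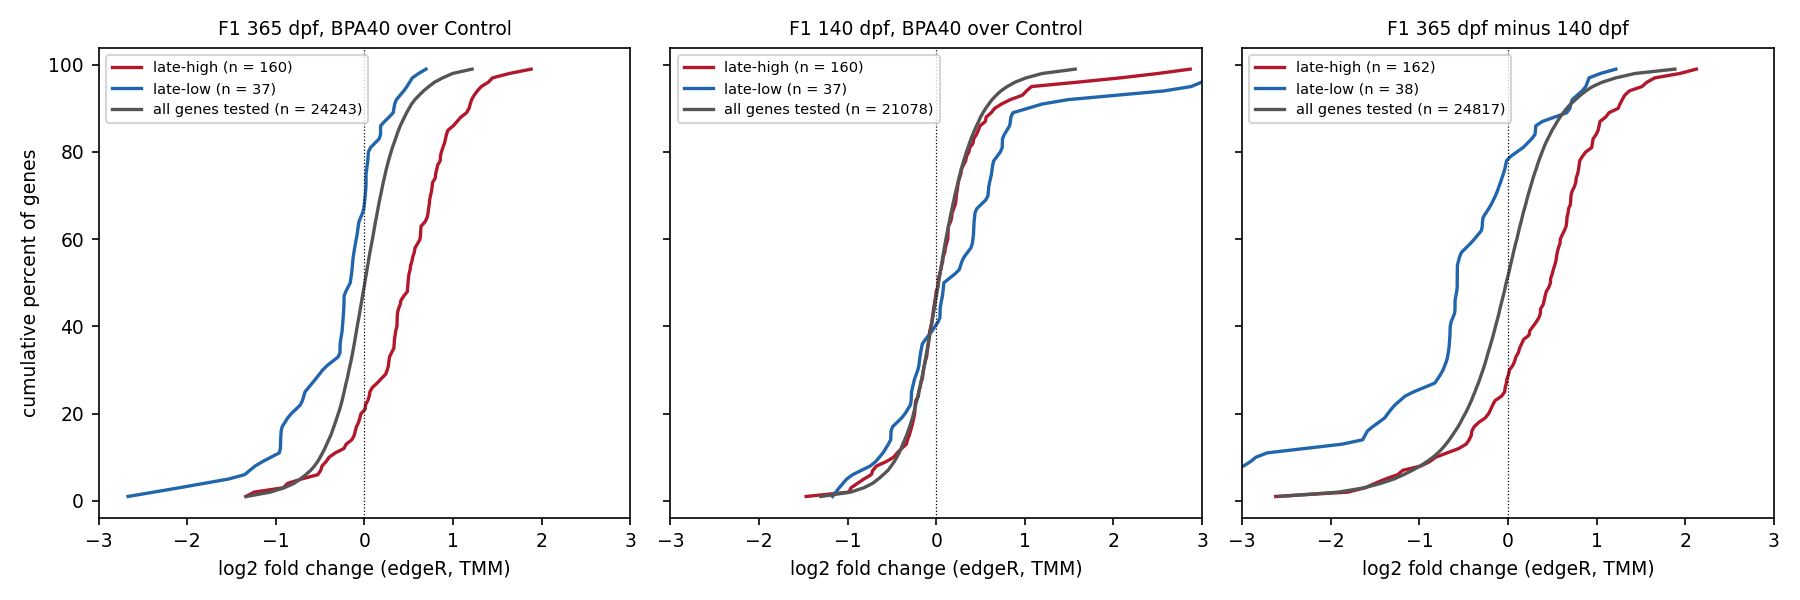
Cumulative percent of genes by log2 fold change (edgeR, TMM) in F1 fish, for BPA40 against Control at 365 dpf, at 140 dpf, and for the difference between these 2 fold changes, with the horizontal axis limited to values between -3 and 3. At 365 dpf the late-high curve crosses that of all genes tested in the lower tail and lies to its right above that, with medians of 0.49 and 0.00. At 140 dpf the medians are 0.02 and 0.03.

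In F1, the fold change at 365 dpf minus that at 140 dpf was tested in a fit of all 24 fish. Such a difference can arise without a change of sign, which was not tested. The late-high medians were 0.49 at 365 dpf and 0.02 at 140 dpf, and the late-low medians -0.16 and 0.09. The difference had a median of 0.48 in the late-high genes, with 116 of 162 above 0. In the late-low genes it was -0.57, with 30 of 38 below 0. The median over all 24817 genes tested was -0.02, with 12005 above 0 and 12812 below. At an unadjusted p under 0.05 it was above 0 in 7 late-high genes (4.32%) and below 0 in 4 (2.47%), where the shares over all genes were 2.24% and 3.80%. In the late-low genes it was below 0 in 4 (10.5%) and above 0 in 0. At an adjusted p under 0.05 there were 0 calls by edgeR, and 11 by DESeq2 with 0 of the 200 genes among them. The smallest edgeR adjusted p of the 200 genes was 0.601. The counts were small and moved with single fish: the late-high genes above 0 numbered 17 without Control replicate 0 of 365 dpf, 12 without BPA40 replicate 3 of 140 dpf or BPA40 replicate 0 of 365 dpf, and 4 without BPA40 replicate 2 of 140 dpf. Those below 0 numbered 15 without BPA40 replicate 3 of 365 dpf and 2 without BPA40 replicate 2 of 140 dpf or either of Control replicates 2 and 3 of 365 dpf. The late-low genes below 0 numbered 1 without Control replicate 2 of 365 dpf and 2 without Control replicate 3 of 365 dpf or Control replicate 0 of 140 dpf.

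By the sign of R in CPM, 49 of the 162 late-high genes (30.2%) repeated the F2 order in F1, above the Control at 365 dpf and below it at 140 dpf, where 21.4% of all genes did. A larger number, 83 (51.2%), were above the Control at both F1 ages, where 41.0% of all genes were. The signs at F1 140 dpf moved with the scaling. In CPM, 103 late-high genes and 10460 of all genes were above 0 there, and with TMM scaling 83 and 8304. The orders over both ages were not counted with TMM scaling, so which is the more frequent may depend on it. An R of at least 0.7 at 365 dpf with one of -0.7 or less at 140 dpf was reached by 3 late-high genes (1.85%), against 0.255% of all genes. Of the late-low genes, 15 (39.5%) were below the Control at F1 365 dpf and above it at F1 140 dpf, where 22.5% of all genes were. None of them reached 0.7 in size at both ages in that order, 0 of 38, where 0.589% of all genes did.

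F1 fish of BPA4 are set beside those of BPA40, with which they share the Control fish. At F1 365 dpf the late-high genes had a median log2 fold change of 0.16 in BPA4 fish and 0.49 in BPA40 fish. At an unadjusted p under 0.05, 4 were higher and 1 lower in BPA4 fish (2.50% and 0.625%), where the shares over all genes were 1.95% and 3.93%. At F1 140 dpf the median was -0.22 in BPA4 fish and 0.02 in BPA40 fish. There 21 late-high genes were lower and 6 higher in BPA4 fish (13.1% and 3.75%), where the shares over all genes were 2.97% and 3.39%, with 0 edgeR calls at an adjusted p under 0.05 and 54 DESeq2 calls, 0 of them among the 200 genes. Per fish, the median level of the late-high genes was 0.50, -0.98, -0.40 and -0.61 in BPA4 fish at F1 140 dpf. Replicate 0 thus stood above every Control fish and the other BPA4 fish below them. Over all genes the same measure was 0.17, -0.30, -0.01 and -0.06 in BPA4 fish, against 0.01, -0.03, 0.12 and -0.15 in Control fish. Replicate 0 was above every Control fish and replicate 1 below them there too, so these places are not particular to the late-high genes. In the late-low genes, the median in BPA4 fish was -0.04 at F1 365 dpf and 0.32 at F1 140 dpf.

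The change with age within a treatment is given here as a description. The choice of the genes used the F2 Control and BPA40 fish. In CPM, the late-high genes of F2 had a median log2 ratio of 365 dpf over 112 dpf of -0.82 in Control, 0.38 in BPA4 and 1.17 in BPA40 fish. For the late-low genes, Control fish had 1.56, BPA4 fish 0.13 and BPA40 fish -0.60. All 16457 genes had medians of 0.61, 0.77 and 0.88 in that order of treatments. The distance between the Control and BPA40 values follows from the choice of the genes. That choice did not use the BPA4 fish, but it favours a BPA4 value between those values. In F1 the ratio of 365 dpf over 140 dpf had a median of -0.22 in Control, 0.06 in BPA4 and 0.10 in BPA40 fish for the late-high genes. For the late-low genes it was -0.54, -0.31 and -0.71. Over all genes the F1 medians were -0.002, 0.11 and 0.02 in that order of treatments.

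**Figure D5:**
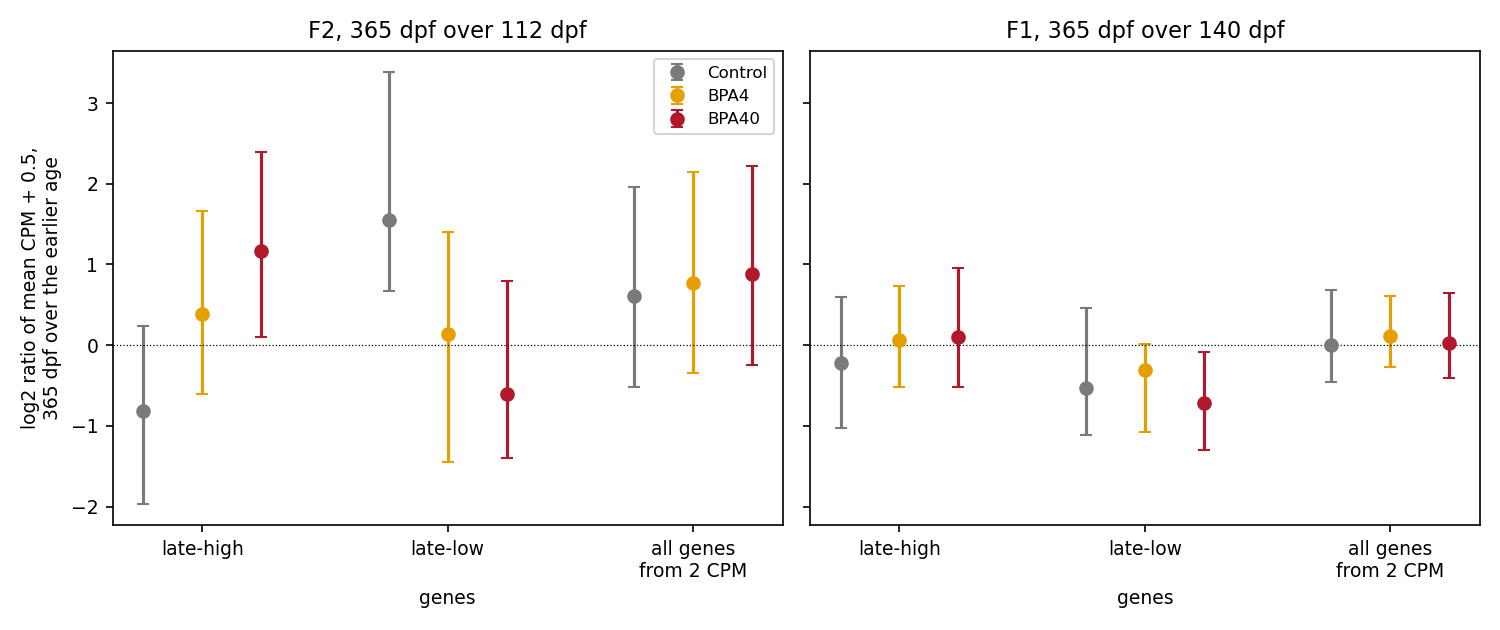
Log2 ratio of mean CPM + 0.5 at 365 dpf over the earlier age, for the late-high, late-low and all genes of at least 2 CPM, by treatment. Points are medians over genes and bars reach the quartiles. In F2 the medians of the late-high genes are -0.82, 0.38 and 1.17 in Control, BPA4 and BPA40 fish, and those of the late-low genes run in the opposite order.

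The change with age was tested as a contrast of fish that the rule did not use. In F2, however, the spread in that test was estimated from all 24 fish, and the 16 fish of the rule are among them. The F2 test is thus not fully independent of the choice of the genes. In F2 BPA4 fish, 365 dpf against 112 dpf by edgeR's quasi-likelihood test in a fit of 24 fish, 38 late-high genes were higher and 66 lower at 365 dpf at an adjusted p under 0.05 (23.5% and 40.7%). Over all 25979 genes, 40.1% were higher and 28.2% lower. Of the late-low genes, 7 were higher and 19 lower (18.4% and 50%). The median log2 fold change was -0.54 in the late-high genes, -0.86 in the late-low genes and 0.52 over all genes with TMM scaling. With library size alone these medians were 0.34, 0.084 and 1.43, so that the sign of the change of either list depends on the scaling. The calls with library size alone were 56 higher and 32 lower in the late-high genes (34.6% and 19.8%) and 10 higher and 12 lower in the late-low genes (26.3% and 31.6%), where 56.2% of all genes were higher and 14.5% lower. Relative to the median of all genes, the late-high genes stood at -1.06 with TMM and -1.09 with library size alone, and the late-low genes at -1.38 and -1.35. Under either scaling, 110 of 162 late-high and 28 of 38 late-low genes lay below the median of all genes. The scaling moved the genes by nearly the same amount, so this agreement is no check of the place of the lists. All genes tested include many of low level, which the rule left out. Over the 16456 tested genes of at least 2 CPM in F2, 32.9% were higher and 38.9% lower with TMM scaling and the median was -0.17. The share of lower late-high genes, 40.7%, was close to that of genes of such levels. Their share of higher genes, 23.5%, and their median, -0.54, were below those of such genes. Of the late-low genes a larger share, 50%, was lower.

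In F1 Control fish, 365 dpf against 140 dpf, 23 late-high genes were higher and 56 lower at an adjusted p under 0.05 (14.2% and 34.6%), where the shares over all 24817 genes were 25.5% and 20.8%. Of the late-low genes, 5 were higher and 12 lower (13.2% and 31.6%). Without Control replicate 3 of 140 dpf the lower late-low genes numbered 7, and without any of the other Control fish of 140 dpf the higher ones numbered 3. The median log2 fold change was -0.41 in the late-high genes, -0.92 in the late-low genes and 0.07 over all genes. With library size alone it was -0.24, -0.64 and 0.26. The calls were then 23 higher and 33 lower in the late-high genes (14.2% and 20.4%) and 6 higher and 10 lower in the late-low genes (15.8% and 26.3%), where 27.9% of all genes were higher and 12.7% lower. Over the 16428 tested genes of at least 2 CPM the shares were 20.4% and 28.4%, and the median was -0.19.

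The named genes did not all follow their lists with age. GSONMT00014403001 was higher at 365 dpf in F2 BPA4 fish, with a log2 fold change of 1.66 ± 0.46 (SE) and an adjusted p of 0.00301. It was also higher in F1 Control fish, with 1.38 ± 0.49 (SE) and an adjusted p of 0.0243, both by edgeR's quasi-likelihood test. The call in F1 Control fish was lost without Control replicate 1 or 3 of 140 dpf or Control replicate 3 of 365 dpf, with adjusted p-values of 0.0565, 0.0855 and 0.0796. GSONMT00081369001 was lower at 365 dpf in F2 BPA4 fish, with -1.20 ± 0.30 (SE) and an adjusted p of 0.00131, and this was -0.31 with an adjusted p of 0.389 when scaled to library size alone. For GSONMT00062786001 the same change was -0.72 ± 0.28 (SE), with an adjusted p of 0.0270, but its sign turned to 0.26 with library size alone. Its call was also lost without BPA4 replicate 1 of 112 dpf or replicate 0 or 1 of 365 dpf, with adjusted p-values of 0.172, 0.0527 and 0.0605. For GSONMT00067783001 the change was 0.72 ± 0.78 (SE), with an adjusted p of 0.416.

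The late-high genes had a wide spread between fish of 1 treatment. Over the 12 fish of F1 140 dpf, after the mean of each treatment was taken off, the SD of a late-high gene on the log2 scale had a median of 0.61, against 0.38 over all genes. At F1 365 dpf it was 0.68, against 0.34. As a description, the mean correlation between pairs of late-high genes over these residuals was 0.40 at F1 140 dpf and 0.15 at F1 365 dpf, where over all genes it was 0.10 at both ages. For the late-low genes it was 0.12 at F1 140 dpf and 0.06 at F1 365 dpf. The fish share their libraries and scaling in these values. In F2 BPA4 fish the median SD of the late-high genes was 0.72 at 112 dpf and 0.53 at 365 dpf, where that over all genes was 0.52 and 0.28.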

How the data were processed

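Livers of 48 rainbow trout were analysed, 4 per treatment and time point, grouped by the sample labels. The authors trimmed reads with bcl2fastq, mapped them to the published trout genome with Bowtie 2.2.6 and TopHat 2.1.0, and estimated abundance with Cufflinks and Cuffdiff. The deposited counts are whole fragments per gene and fish without normalization. The deposited FPKM values, which Cuffdiff scaled within each table of 12 fish, are used here only for levels per length. A further 8 columns of scaled fragments were not used, nor were results of the authors' comparisons. The titles of the early F2 samples give another age than their labels and the paper, which say 112 dpf, and the descriptions of the F1 BPA40 samples give the lower concentration, while the titles and the paper give the higher one. The ages of the labels and the doses of the titles were used. Genes marked in F2 as holding too many fragments (15) were left out. In 72 pairs of fish of the same group, the chi-square per degree of freedom of the counts was at least 24.7, so no pair was a duplicate library.

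Counts of F1 fish, and of F2 BPA4 fish for the change with age, were tested with edgeR 4.0.16 (R 4.3.3; glmQLFit and glmQLFTest, TMM, filterByExpr, no covariates), in fits of the 12 fish of a time point or the 24 fish of a generation, with Benjamini-Hochberg adjustment over all genes tested and a threshold of 0.05. Fish are the replicates. The study kept the F1 fish of a treatment in fewer tanks than the 4 fish sampled and the older F2 fish in a single tank, so fish of a group shared tanks. The labels do not tie fish to tanks, and p-values measure only the spread between these fish. Alternatives were DESeq2 1.42.0, other scalings and filters, the replicate number as a block, other settings of the rule and leaving out each fish. The fits were tested on simulated data. The figures used matplotlib 3.10.9. The precision is limited by 4 fish per group and by depth, from 6788947 to 19528494 fragments per fish.

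The genes, the comparisons and their thresholds were chosen with earlier results of these data known. In each direction, the genes with no overlap in CPM between BPA40 and Control fish at both F2 ages were ranked by the smaller absolute R. The list was filled from the rest in the same order, and the first 2 were named. F2 contrasts of BPA40 with Control were used by the choice and carry no test.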

Additional observations from a re-analysis of the deposited data

Results flagged for a closer look

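Of 96 groups of 4 fish examined for a single fish far from the others, 7 held one, where chance gives about 4.8 (1 in 20 groups). In the late-high genes at F1 365 dpf, the median level relative to the Control mean was 0.75 in BPA40 replicate 2, above the other BPA40 fish, and -0.37 in BPA4 replicate 3, below the other BPA4 fish. The sum of the late-low genes was 9911 CPM in BPA40 replicate 0 at F1 365 dpf and 20474 CPM in Control replicate 0 at F2 365 dpf, both above the other fish of their group. GSONMT00014403001 had 90.1 CPM in Control replicate 1 of F2 112 dpf, above the other Control fish, and GSONMT00062786001 had 7.94 CPM in the same fish, below the others. GSONMT00067783001 had 2.83 CPM in Control replicate 3 of F1 140 dpf, above the other Control fish.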

How the results depend on the processing

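The number of genes that passed the rule, 164 late-high and 39 late-low before the limit of 200, moved with its settings. An added constant of 0.1 CPM gave 254 and 64, and one of 2 CPM gave 78 and 18. TMM scaling gave 51 and 114, a threshold of 1 gave 21 and 14, and group medians gave 25 late-low genes. Taking the median R of all genes off, an alternative chosen after seeing the data, gave 71 and 79. Leaving out each of the 16 fish gave 111 to 310 late-high and 31 to 58 late-low genes, with 310 without BPA40 replicate 2 and 259 without Control replicate 3 of F2 112 dpf. Of the 200 genes, those at an unadjusted p under 0.05 numbered 15 at F1 140 dpf (12 to 24 without single fish, 24 without BPA40 replicate 1), 27 at F1 365 dpf (18 to 43, 43 without Control replicate 0) and 15 for the difference between the ages (9 to 26, 9 without BPA40 replicate 2 of 140 dpf, 26 without BPA40 replicate 3 and 25 without Control replicate 0 of 365 dpf). Those called for the change with age numbered 130 in F2 BPA4 (117 to 128) and 96 in F1 Control (78 to 95). A minimum of 10 fragments in every fish left 6 at F1 140 dpf, and 65 and 51 for the changes with age, with fewer genes tested. DESeq2, its size factors and the other settings kept these counts within 1.5 times. At an adjusted p under 0.05, however, DESeq2 called 104 of all genes at F1 140 dpf, 30 at F1 365 dpf and 11 for the difference between the ages, where edgeR called 1, 0 and 0.

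With library size alone, the median change with age in F2 BPA4 turned to 0.34 in the late-high and 0.084 in the late-low genes, and that of GSONMT00062786001 to 0.26, or to 0.30 with the minimum of 10 fragments. Without single fish, the F1 values that were not called crossed 0 for GSONMT00067783001 at 140 dpf (-1.84 to 2.22), for GSONMT00014403001 at 365 dpf (-0.77 to 0.19) and between ages (-0.035 to 0.94), and for GSONMT00062786001 between ages (-0.12 to 0.11). The cause of these moves was not tested.

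Deviations of same-numbered fish correlated between -0.45 and 0.27 over the pairs of groups examined. Between BPA40 and Control they ran between -0.45 and -0.16 at F1 140 dpf and between 0.07 and 0.25 at F1 365 dpf. Fish of different numbers were not compared in this way, so whether the replicate numbers pair the fish is not settled. With the replicate number as a block, the counts were 12 at F1 140 dpf, 28 at F1 365 dpf and 15 for the difference between the ages, and 127 and 100 for the changes with age in F2 BPA4 and F1 Control.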
